A study of Mus musculus with 48 samples.

Results

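The genes described here are the aminoacyl-tRNA synthetases and a set of genes of the amino acid response, measured in mouse embryonic fibroblast lines with and without the messenger RNA decay factor tristetraprolin (TTP, gene Zfp36). They were chosen by name: symbols made of a one-letter amino acid code other than P and ars, with or without a final 1 or 2, the subunit genes Farsa and Farsb, and Atf4, Atf5, Asns, Trib3, Psat1, Phgdh, Shmt2 and Mthfd2. The choice gave 41 of the 18193 genes that carry a single symbol on the array: 18 cytosolic synthetase genes, 15 mitochondrial synthetase genes whose symbols end in 2, and the 8 response genes. Each gene was read by its brightest probe set, and all 41 passed the filter on dim signals that left 27500 probe sets for testing. Dars carried no single symbol and was not analysed here. The naming rule does not take Eprs, Pars2 or Tarsl2.

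The lines came from littermate E14.5 embryos, from Zfp36 +/- parents of mixed 129 and B6 background, with head and organs removed. WT cells are Zfp36 +/+ and KO cells are Zfp36 -/-, and the labels point to 1 line per genotype without stating it, so an effect of Zfp36 cannot be told apart from other differences between the 2 cultures. Every sample was kept for 16 h in 0.5% serum and then for 90 min in 10% serum, after which actinomycin D, which blocks transcription, acted for 0, 30, 60, 90 or 120 min; its dose is given both as 5 and as 0.5 ug/ml. The 48 Affymetrix Mouse Genome 2.0 arrays form 10 groups of line and time from 5 experiments on different days, with n = 5 in each group except KO at 0 min (no experiment 5) and KO at 60 min (no experiment 4), which have n = 4.

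Aminoacyl-tRNA synthetases join each amino acid to its transfer RNA. Transfer RNA that stays uncharged activates the kinase GCN2, which phosphorylates the initiation factor eIF2 alpha; general translation then slows while the messenger RNA of the transcription factor ATF4 is translated more. ATF4 binds C/EBP-ATF response elements and raises genes for amino acid synthesis and uptake and for many cytosolic synthetases, and one of its targets, the pseudokinase Trib3, inhibits it in turn. Most mitochondrial synthetases are encoded by separate nuclear genes.

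The letters TGATGNAA, the core of a C/EBP-ATF response element, were looked for on both strands of RefSeq promoter windows (assembly GRCm38.p6, 250 bases before to 50 bases after the start of a gene), because the response genes and many synthetases are known ATF4 targets. Of the 33 genes here with a window, 7 held a match (21.2%), against 4.51% of all 27025 genes with a window and 3.97% of all 32851 windows. The matches lay in 5 of 11 cytosolic synthetase genes, 2 of 8 response genes and 0 of 14 mitochondrial synthetase genes. Cars, Hars, Hars2, Lars, Nars, Rars, Vars and Wars were not among the windows used here. A match is a description of these letters, not a binding site. The sequences below run 5′ to 3′ on the strand of the gene, end at the base before the start (Aars, Asns, Gars, Tars), span the start (Iars, Yars) or lie after it (Trib3), and carry the match in capitals; TTGCATCA, TTTCATCA and TTACATCA are the motif read on the other strand.
Aars (chr8:111033592-111033841, plus strand): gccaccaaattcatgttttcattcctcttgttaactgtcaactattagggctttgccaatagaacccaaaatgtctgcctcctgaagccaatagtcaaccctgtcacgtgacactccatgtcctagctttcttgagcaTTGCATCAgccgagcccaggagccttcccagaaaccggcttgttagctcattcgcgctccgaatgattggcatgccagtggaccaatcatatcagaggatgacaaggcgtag
Asns (chr6:7693210-7693459, minus strand): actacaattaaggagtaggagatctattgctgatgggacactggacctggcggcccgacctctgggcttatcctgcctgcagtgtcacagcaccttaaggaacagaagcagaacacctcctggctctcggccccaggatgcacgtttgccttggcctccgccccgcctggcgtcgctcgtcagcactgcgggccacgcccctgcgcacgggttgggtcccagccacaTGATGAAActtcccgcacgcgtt
Gars (chr6:55037941-55038000, plus strand): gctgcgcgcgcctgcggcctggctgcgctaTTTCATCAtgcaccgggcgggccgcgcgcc
Tars (chr15:11399659-11399718, minus strand): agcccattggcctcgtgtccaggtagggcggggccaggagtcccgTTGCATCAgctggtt
Iars (chr13:49682126-49682155, plus strand): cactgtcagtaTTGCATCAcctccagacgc
Yars (chr4:129189895-129189924, plus strand): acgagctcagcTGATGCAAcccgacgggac
Trib3 (chr2:152344028-152344057, minus strand): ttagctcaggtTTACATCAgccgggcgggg
The capitals of Aars lie 112 to 105 bases before the start, those of Asns 23 to 16, those of Gars 30 to 23 and those of Tars 15 to 8. In Iars, Yars and Trib3 they lie after the start. Aars held a second match after its start, not shown. Of these 7 genes, 6 had a higher signal in KO past the threshold in the average over the times described below. So had 10 of the 12 cytosolic synthetase and response genes whose window held no match. Of all probe sets tested 27.3% were higher, and of all genes tested by their brightest probe set 30.4%. Iars had a log2 difference of 0.09 ± 0.047 (SE, adjusted p = 0.0952, limma). In a fit with the experiment as a block it was 0.11 and passed (adjusted p = 0.00103, limma). The other probe set of Iars passed at 0.11 without the block.

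Signals are the deposited log2 values, in which array medians lay between 8.47 and 8.56 and values near 8 carry little signal (the highest 5th percentile of an array was 8.13). Means of the 41 genes over all arrays ran from 8.93 to 10.71 for the cytosolic synthetases, from 8.77 to 10.99 for the response genes and from 8.45 to 9.64 for the mitochondrial synthetases. Zfp36 was lower in KO at 0 min, with a log2 difference of -0.35 ± 0.090 (adjusted p = 0.00245), and its difference averaged over the 5 times, -0.08 ± 0.039, did not pass (adjusted p = 0.0756). Of 8 fibroblast markers, 7 lay above the array median in both lines (Thy1 was near the floor), against 0 of 4 epithelial, 0 of 4 endothelial, 1 of 4 muscle, 2 of 4 macrophage and blood, and 3 of 4 neural markers; in the average over the times 2 fibroblast markers were higher in KO and 4 lower, from -0.32 (Pdgfrb) to 0.35 (Dcn) on the log2 scale. Of the neural markers, Tubb3, a neuronal tubulin, was higher in KO by 0.85 and Map2, a neuronal microtubule protein, was lower, at -0.21 (adjusted p = 0.000101). The summed linear signal of the neural markers ranged from 2375 to 2760 over WT arrays and from 2527 to 3004 over KO arrays. That of the macrophage and blood markers ranged from 1537 to 1838 in WT and from 1555 to 2224 in KO. Cd14 (0.21, adjusted p = 0.0322, limma) and Cd68 (0.08, adjusted p = 0.00143) were higher in KO in the average over the times. Csf1r (-0.04) and Ptprc (-0.02) did not pass. The part of such cells in the differences below was not tested. Values of bulk samples do not tell fewer cells of a type from less RNA per cell.

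The level of these genes in the 2 lines was compared by the KO minus WT difference averaged over the 5 times, which uses every array, and by the difference at 0 min, after serum and before actinomycin D. Most cytosolic synthetases and all response genes had a higher signal in KO in the average, and most mitochondrial synthetases did not pass. Atf4 and Atf5 did not pass at 0 min. In the average, 13 of 18 cytosolic synthetases were higher in KO, 2 were lower and 3 did not pass, with a median log2 difference of 0.21. All 8 response genes were higher, with a median of 0.39. Among the 15 mitochondrial synthetases 1 was higher, 4 were lower and 10 did not pass, with a median of -0.02. The threshold was an adjusted p of 0.05 from limma over all probe sets. The fit had no term for the experiment, so it counted the times of 1 experiment as independent arrays. The lines differed widely at that threshold: 27.3% of all probe sets tested were higher and 25.6% lower in KO in the average, with a median of -0.01, so the 22 genes of 41 that were higher and the 6 that were lower stand beside that background. At 0 min 13.4% of all probe sets were higher and 11.9% lower, and 13 cytosolic synthetases, 6 response genes and 0 mitochondrial synthetases were higher (1 of them, Tars2, at an unadjusted p under 0.05 with limma). Only Wars2 among the 41 was lower at 0 min. The difference between the kinds of gene was not itself tested. The mitochondrial synthetases were also dimmer, with a median mean signal of 8.88 against 10.31 for the cytosolic ones, and differences are compressed in dim signals. Where arrays of the lines are said below not to overlap at 0 min, the share of all probe sets without overlap at that time was not counted.

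**Figure D1:**
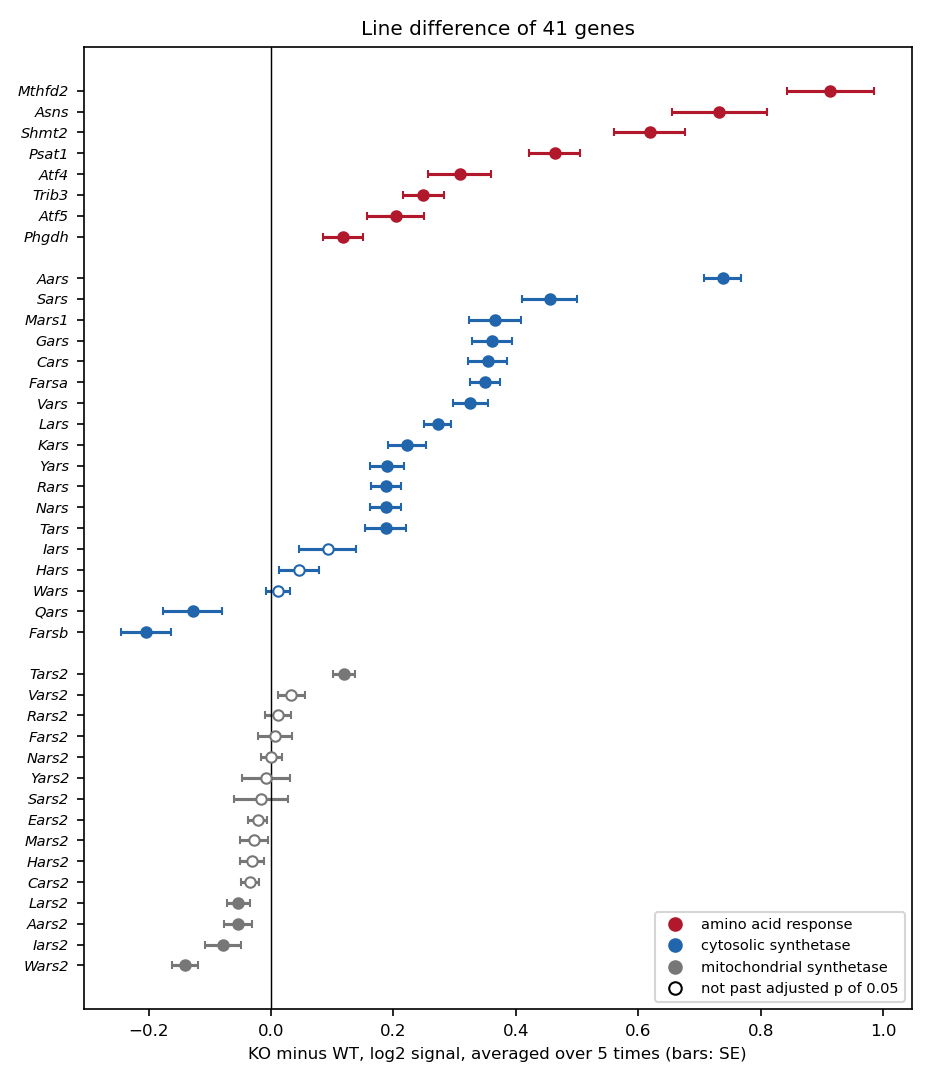
KO minus WT difference in log2 signal (horizontal axis, averaged over the 5 times, bars SE from the limma fit) for the 41 genes, one row each, grouped and coloured by kind; open points did not pass an adjusted p of 0.05. The 8 response genes all lie above 0, the cytosolic synthetases run from -0.20 (Farsb) to 0.74 (Aars), and the mitochondrial synthetases stay between -0.14 (Wars2) and 0.12 (Tars2).

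The regulators of the response came first. Atf4, the transcription factor itself, had log2 signals at 0 min of 10.80, 10.92, 10.95, 11.04 and 10.71 in WT and of 10.82, 10.87, 10.77 and 11.15 in KO. The lines overlapped there, and the log2 difference was 0.02 ± 0.12 (SE, adjusted p = 0.929). After 120 min of actinomycin D the signals were 9.64, 10.23, 9.78, 9.85 and 9.91 in WT and 10.21, 10.28, 10.17, 10.66 and 10.48 in KO. The lines then overlapped by 2 KO arrays under the highest WT array, and KO was higher by 0.48 ± 0.11 on the log2 scale (adjusted p = 0.000803), or 1.39-fold. The average over the 5 times was 0.31 ± 0.051 (adjusted p = 1.57e-06), and it was above 0 in 4 of 5 experiments. In experiment 2 it was -0.01. Of the 3 probe sets of Atf4, 2 passed above 0 in the average, and the lowest was at -0.09 and did not pass.

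Atf5, a related factor that ATF4 induces, had signals at 0 min of 9.44, 9.54, 9.20, 9.39 and 9.34 in WT and of 9.59, 9.41, 9.41 and 9.92 in KO. The arrays of the lines overlapped at each of the 5 times, and at 0 min the KO array of experiment 4 was the highest. The averaged log2 difference was 0.20 ± 0.046 (adjusted p = 0.000225), above 0 in 4 of 5 experiments, and ran from -0.085 to 0.59 over them. In experiments 1 to 3 alone it was 0.08 and did not pass (adjusted p = 0.0755). For Trib3, the ATF4 inhibitor, signals at 0 min were 8.63, 8.69, 8.83, 8.65 and 8.71 in WT and 8.99, 8.86, 9.15 and 9.38 in KO. Every KO array lay above every WT array, with a log2 difference of 0.39 ± 0.076 (adjusted p = 7.94e-05), or 1.31-fold. By 120 min the signals were 8.65, 8.71, 8.60, 8.63 and 8.69 in WT and 8.76, 8.72, 8.65, 8.94 and 8.78 in KO, and the difference of 0.11 ± 0.072 did not pass (adjusted p = 0.225).

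Among the 8 response genes, the enzymes Mthfd2, Asns, Shmt2 and Psat1 had the highest averaged differences, while the enzyme Phgdh had the lowest. Mthfd2, a mitochondrial enzyme of one-carbon metabolism, had signals at 0 min of 9.36, 9.21, 9.19, 9.58 and 9.62 in WT and of 10.62, 10.26, 9.96 and 10.65 in KO. Each KO array was above each WT array at all 5 times, and the averaged log2 difference was 0.91 ± 0.072 (adjusted p = 4.78e-15), or 1.88-fold. Asns makes asparagine from aspartate. Its signals at 0 min were 9.97, 9.79, 9.72, 10.11 and 10.19 in WT and 10.72, 10.51, 10.67 and 11.24 in KO, without overlap, and the averaged log2 difference was 0.73 ± 0.077 (adjusted p = 3.52e-11), or 1.66-fold. Shmt2, which takes a one-carbon unit from serine in mitochondria, had signals of 9.30, 9.18, 9.10, 9.34 and 9.41 in WT and of 9.85, 9.57, 9.74 and 10.22 in KO at 0 min. Its lines did not overlap at any of the 5 times, and the averaged log2 difference was 0.62 ± 0.058 (adjusted p = 1.43e-12), or 1.54-fold.

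The enzymes of serine synthesis differed less. Psat1, its aminotransferase, had signals at 0 min of 10.70, 10.54, 10.29, 10.49 and 10.41 in WT and of 11.00, 10.65, 11.07 and 11.03 in KO. One KO array, that of experiment 2, lay under the highest WT array, and the averaged log2 difference was 0.46 ± 0.042 (adjusted p = 3.17e-13), or 1.38-fold. Phgdh, the first enzyme of the route, had signals of 10.78, 10.83, 10.96, 10.78 and 10.73 in WT and of 11.05, 10.86, 11.02 and 11.12 in KO. The KO array of experiment 2 lay within the WT range, and the averaged log2 difference of Phgdh was 0.12 ± 0.033 (adjusted p = 0.002). By experiment that difference ran from -0.03 to 0.31. That difference did not pass without experiment 4 (0.08, adjusted p = 0.0777) or in experiments 1 to 3 alone (0.08, adjusted p = 0.114). The difference of Phgdh at 0 min, 0.20 ± 0.076 (adjusted p = 0.0475), did not pass without experiment 1, 4 or 5. Its adjusted p was then 0.194, 0.22 and 0.109.

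**Figure D2:**
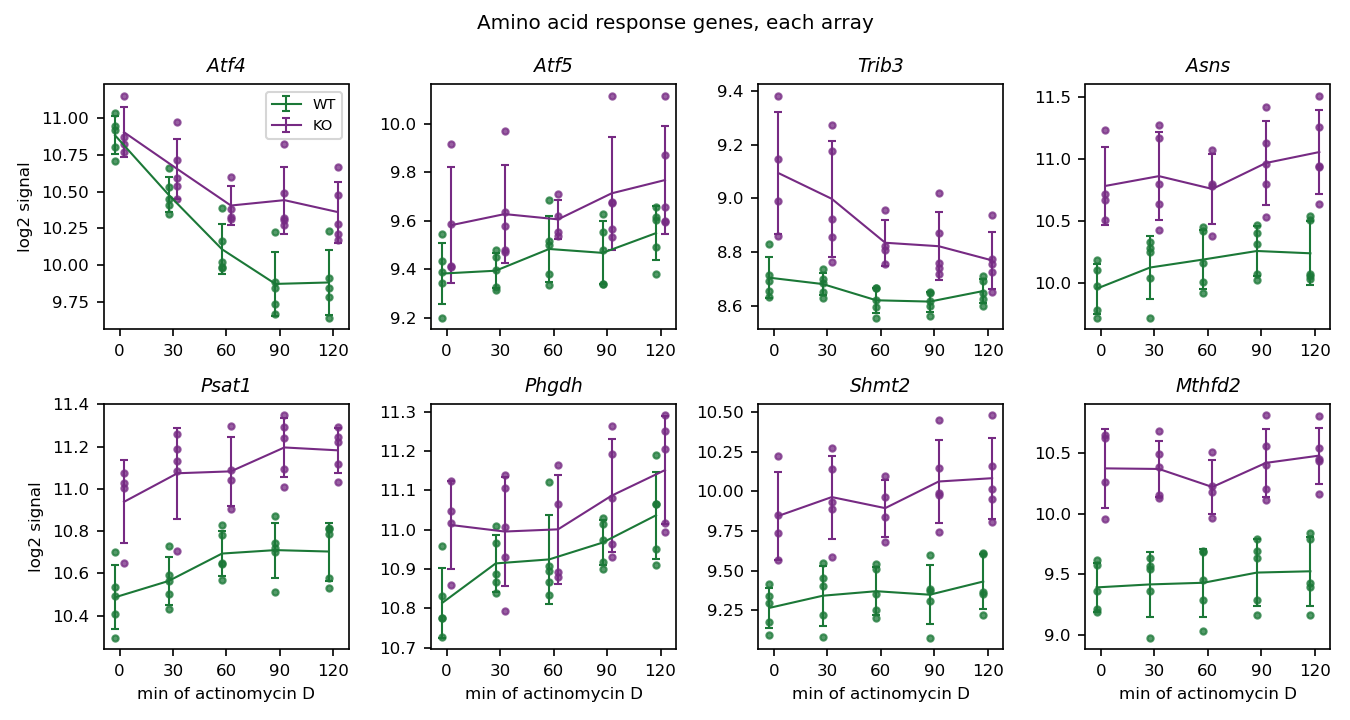
Log2 signal (vertical axis) against min of actinomycin D (horizontal axis) for the 8 response genes; points are single arrays of WT and KO (4 or 5 per group), lines join group means and bars are SD. Mthfd2 and Shmt2 do not overlap between the lines at any of the 5 times, the Atf4 lines start together at 0 min and lie 0.48 apart at 120 min, and Trib3 starts apart in KO and comes closer.

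Among the synthetases, Aars (alanine) had the highest averaged difference. Its log2 signals at 0 min were 10.12, 9.89, 9.95, 9.90 and 9.84 in WT and 10.88, 10.51, 10.74 and 10.80 in KO. No KO array came down to any WT array at any of the 5 times, and the averaged log2 difference was 0.74 ± 0.031 (adjusted p = 1.16e-24), or 1.67-fold. Sars (serine) had signals of 10.04, 10.05, 9.95, 10.07 and 9.75 in WT and of 10.61, 10.53, 10.23 and 10.44 in KO, without overlap. The averaged difference was 0.46 ± 0.045 (adjusted p = 4.95e-12), or 1.37-fold. Mars1 (methionine), a member of the multi-synthetase complex, had signals of 9.47, 9.42, 9.33, 9.51 and 9.52 in WT and of 9.93, 9.73, 9.74 and 10.11 in KO at 0 min. These did not overlap either, and the averaged difference was 0.37 ± 0.043 (adjusted p = 6.56e-10).

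Gars encodes both the cytosolic and the mitochondrial enzyme for glycine. Its signals at 0 min were 10.36, 10.25, 10.21, 10.39 and 10.39 in WT and 10.83, 10.73, 10.63 and 10.86 in KO, and the lines did not overlap at any of the 5 times. The averaged log2 difference was 0.36 ± 0.033 (adjusted p = 5.49e-13). Cars (cysteine) had signals of 9.07, 8.81, 8.87, 8.93 and 8.84 in WT and of 9.30, 9.02, 9.18 and 9.43 in KO at 0 min. Here the KO array of experiment 2 lay under the WT array of experiment 1, and the averaged difference was 0.35 ± 0.032 (adjusted p = 3.02e-13).

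The other 8 cytosolic synthetases higher in KO had averaged log2 differences between 0.19 and 0.35: Farsa, the catalytic subunit of the phenylalanine enzyme, Vars (valine), Lars (leucine), Kars (lysine), Yars (tyrosine), Rars (arginine), Nars (asparagine) and Tars (threonine). Every one of the 13 was higher in KO in 5 of 5 experiments. They were called higher on the average of these same arrays, so this is not a separate test. The share of all probe sets with the same sign in 5 of 5 experiments was not counted. Kars did not pass in experiments 4 and 5 alone, at 0.05 (adjusted p = 0.164). Over the 41 genes, 6 had every KO array above every WT array at all 5 times (Aars, Farsa, Gars, Lars, Mthfd2 and Shmt2). In 0 of them every KO array lay below. The shares of all probe sets were 4.49% and 3.97%, and those of all genes tested by their brightest probe set 5.97% and 4.96%. Of 11 cytosolic synthetases listed from general knowledge, with no source at hand, as raised by ATF4, 9 were higher in KO, with a median of 0.27. Iars (isoleucine) and Wars (tryptophan) did not pass, though Iars passed with the experiment as a block and by its other probe set. Of the 7 outside that list, 4 were higher and 2 lower, with a median of 0.19. In the multi-synthetase complex, the large assembly of several of these enzymes, 4 of the 6 members among the 41 genes were higher (Kars, Lars, Mars1, Rars) and Qars was lower. Dars and Eprs also belong to the complex. Dars was not analysed, and Eprs, outside the naming rule, did not pass, as given below.

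The 5 synthetase genes with the lowest averaged difference are given array by array. Farsb encodes the partner subunit of Farsa in the phenylalanine enzyme. Its signals at 0 min were 9.85, 9.87, 9.80, 10.11 and 10.00 in WT and 9.68, 9.62, 9.70 and 9.91 in KO, with the KO array of experiment 4 inside the WT range. The averaged log2 difference was -0.20 ± 0.040 (adjusted p = 3.05e-05), below 0 in 5 of 5 experiments, against 0.35 ± 0.025 (adjusted p = 1.85e-16) for Farsa. The subunits of 1 enzyme thus differed between the lines in opposite directions. For Farsb the other 2 probe sets gave -0.21 each, both past the threshold, while the second probe set of Farsa tested, with a dim mean of 8.82, gave -0.02 (adjusted p = 0.57).

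Qars (glutamine) had signals at 0 min of 10.32, 10.45, 10.49, 10.62 and 10.84 in WT and of 10.64, 10.56, 10.42 and 10.44 in KO, within 1 range. Its averaged log2 difference was -0.13 ± 0.048 (adjusted p = 0.0238), and it did not pass without experiment 2 (adjusted p = 0.138), without experiment 4 (0.185) or in experiments 1 to 3 alone (0.305). Wars2, the mitochondrial tryptophan enzyme, had signals of 8.82, 8.74, 8.46, 8.70 and 8.60 in WT and of 8.34, 8.40, 8.52 and 8.39 in KO at 0 min. Apart from experiment 3 the lines stood apart, although all values lay near the dim end of the scale. The averaged difference was -0.14 ± 0.021 (adjusted p = 2.2e-07).

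Iars2, the mitochondrial isoleucine enzyme, had signals at 0 min of 9.68, 9.64, 9.58, 9.74 and 9.66 in WT and of 9.58, 9.41, 9.61 and 9.61 in KO. Aars2, the mitochondrial alanine enzyme, had 8.81, 8.86, 8.93, 8.94 and 9.01 in WT and 8.76, 8.88, 8.74 and 8.84 in KO. The lines overlapped in both genes. The averaged log2 differences were -0.08 ± 0.029 for Iars2 (adjusted p = 0.0202) and -0.05 ± 0.023 for Aars2 (adjusted p = 0.0417). Neither held when single experiments were left out: Iars2 did not pass without experiment 1 (adjusted p = 0.0925) or 2 (0.284), and Aars2 did not pass without experiment 1 (0.129), 2 (0.0813), 3 (0.0518) or 4 (0.106). Lars2 was lower by brightest probe set at -0.05 (adjusted p = 0.0148), did not pass without experiment 1 (0.0827) or 3 (0.152), and had a second, dimmer probe set that was higher in KO at 0.16 (adjusted p = 1.36e-09). Of 25 genes with several tested probe sets, 7 had probe sets of opposite sign in the average. Lars2 was the only 1 of the 25 whose probe sets passed in both directions. Tars2 was the 1 mitochondrial synthetase higher in KO, at 0.12 ± 0.019 (adjusted p = 3.71e-07), in 5 of 5 experiments.

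**Figure D3:**
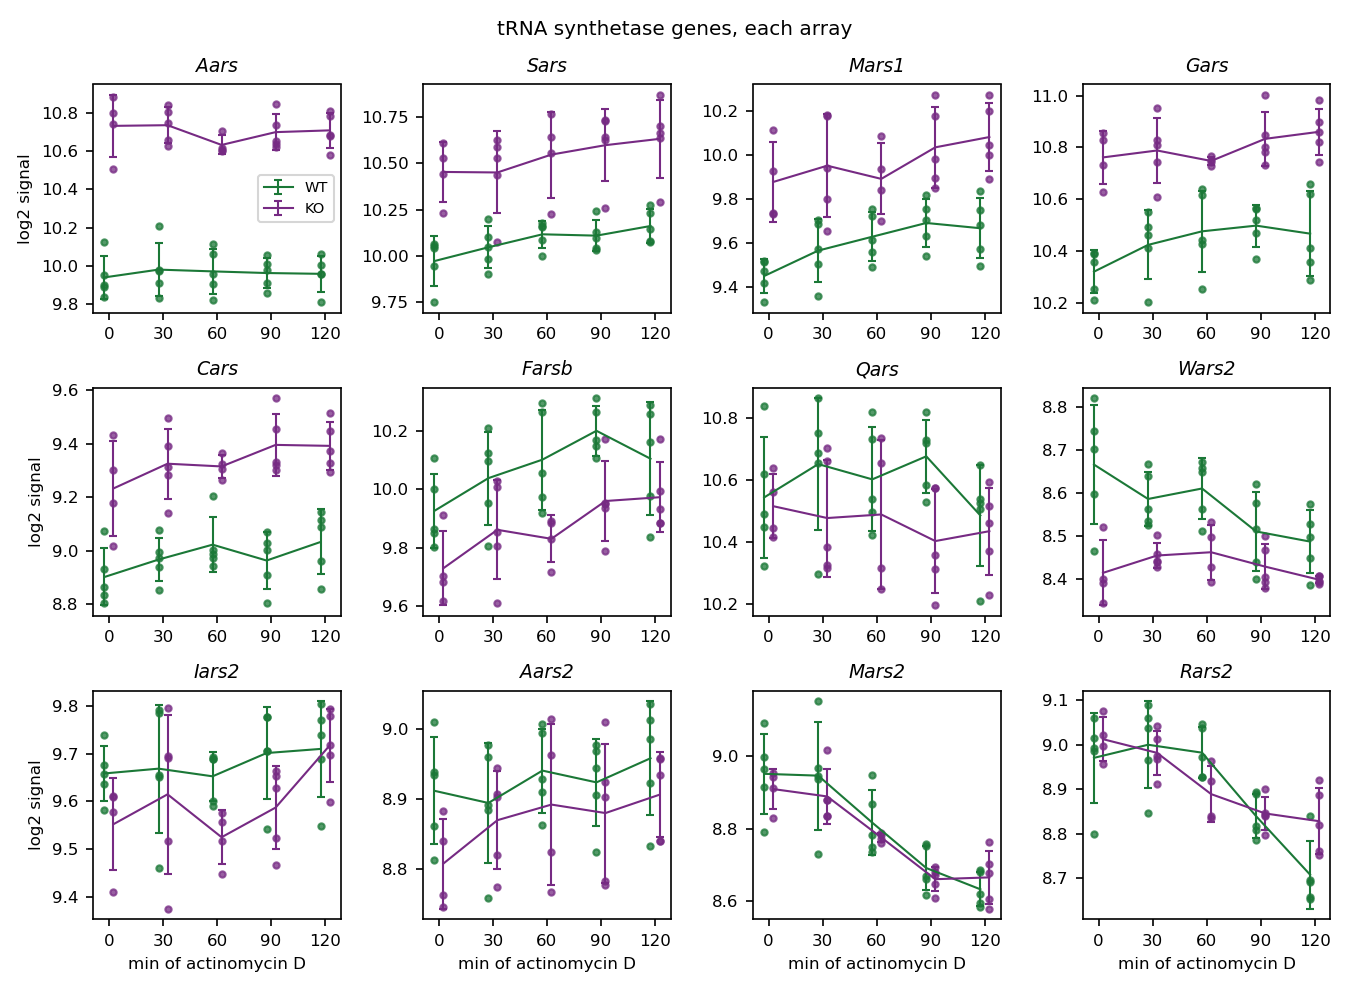
Log2 signal (vertical axis, its range set per panel) against min of actinomycin D (horizontal axis) for 12 synthetase genes; points are single arrays of WT and KO (4 or 5 per group), lines join group means and bars are SD. Aars and Gars do not overlap between the lines at any time, Farsb runs lower in KO, and Mars2 and Rars2 decline in both lines.

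Several probe sets of the same gene gave a second reading of the higher members. The other probe set of Aars gave an averaged log2 difference of 0.70, that of Asns 0.78, that of Mthfd2 0.71 and that of Sars 0.50. The other 3 of Shmt2 gave 0.30, 0.53 and 0.31. Each of these passed the threshold. They matter most for Asns, Shmt2, Trib3, Phgdh, Farsb and Qars, whose brightest probe sets end in x_at, the array maker's mark for probes that can also bind other sequences. The second probe set of Trib3, with a mean of 8.32, gave 0.14 (adjusted p = 4.51e-06). The 4 probe sets of Phgdh all passed above 0, at 0.10 to 0.20, and the 4 of Qars all passed below 0, at -0.13 to -0.05.

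The loss of each transcript was then followed over 120 min of actinomycin D in each line. Because arrays are scaled to one another, an apparent rise may stand for a loss slower than that of the typical transcript. Most of the 41 genes did not pass in either line, and Atf4 fell most. In WT 6 of the 41 rose and 4 fell, and 10.0% of all probe sets rose and 14.0% fell, with a median log2 change of 0.03. In KO 5 rose and 4 fell, against 11.9% and 10.6% of all probe sets and a median of 0.01. Of all genes tested by their brightest probe set, 11.1% rose and 16.4% fell in WT, and 12.8% and 12.2% in KO. With the experiment as a block, 14 of the 41 rose in WT and 15 in KO, beside 15.3% and 17.2% of all probe sets, and 4 fell in each line.

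Atf4 group means ± SD in WT were 10.88 ± 0.13 at 0 min, 10.48 ± 0.12 at 30, 10.11 ± 0.17 at 60, 9.87 ± 0.22 at 90 and 9.88 ± 0.22 at 120 min (n = 5 each). In KO they were 10.90 ± 0.17, 10.65 ± 0.20, 10.41 ± 0.13, 10.44 ± 0.23 and 10.36 ± 0.21 at the same times. Atf4 thus fell over 120 min by 1.00 ± 0.11 on the log2 scale in WT (adjusted p = 9.58e-10), or 2.00-fold, and by 0.54 ± 0.12 in KO (adjusted p = 0.000589). In WT it had already fallen by 0.40 ± 0.11 at 30 min (adjusted p = 0.0466). Straight lines through the 5 times had a slope of -0.52 log2 per h for WT and of -0.25 for KO, a halving of the signal in 115 and 238.2 min. The means did not follow straight lines: they changed little from 90 to 120 min in WT and from 60 to 120 min in KO. The halving time of KO is extrapolated beyond the 120 min measured. Slopes of the 5 experiments ran from -0.61 to -0.36 in WT and from -0.30 to -0.16 in KO, without overlap. The share of all probe sets with such slopes was not counted. KO slopes of experiments 4 and 5 rest on 4 times, and experiment 5, with the flattest slope (-0.16), has no KO array at 0 min. The slope difference, 0.27 ± 0.080 log2 per h, did not pass (adjusted p = 0.0965, limma); with the experiment as a block it was 0.27 and passed (adjusted p = 0.0211). A second bright probe set of Atf4 had a slope difference of 0.26 (adjusted p = 0.361) and fell by 0.80 in WT (adjusted p = 0.000255). The dimmest one, with a mean of 8.77, changed by 0.19 in WT (adjusted p = 0.347). Its slope difference had the opposite sign, at -0.12, and did not pass.

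Trib3 fell in KO and not in WT past the threshold. Its group means in KO were 9.10 ± 0.23 at 0 min, 8.999 ± 0.22 at 30, 8.83 ± 0.09 at 60, 8.82 ± 0.13 at 90 and 8.77 ± 0.11 at 120 min, a fall by 0.33 ± 0.076 on the log2 scale (adjusted p = 0.00118). In WT they stayed between 8.61 and 8.70, and the change of -0.05 ± 0.072 did not pass (adjusted p = 0.648). The slope difference of -0.13 ± 0.045 log2 per h did not pass (adjusted p = 0.227, limma). In experiments 4 and 5 alone it was -0.24. There the only KO array at 0 min is that of experiment 4, at 9.38 the highest KO value, and the only one at 60 min is that of experiment 5. The WT values lay close to the dim end, where a fall is compressed. The second, dimmer probe set of Trib3 changed by -0.13 in KO and did not pass.

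Over all 41 genes, 0 slope differences passed with limma, and 3 (Atf4, Trib3, Wars2) had an unadjusted p under 0.05, which is 7.32% beside 8.59% of all probe sets tested. The slope difference passed above 0 in 0.785% and below 0 in 0.251% of all probe sets. Of the other response genes, over 120 min Asns changed by 0.29 ± 0.17 in WT (adjusted p = 0.23) and by 0.27 ± 0.18 in KO (adjusted p = 0.303) on the log2 scale, and Mthfd2 by 0.13 ± 0.16 (0.571) and 0.11 ± 0.17 (0.715). With the experiment as a block, Asns, Phgdh, Psat1 and Shmt2 rose in both lines, Asns by 0.29 in WT (adjusted p = 0.00329) and 0.22 in KO (adjusted p = 0.0391), and Mthfd2 did not pass in either. Without the block Phgdh rose in WT by 0.22 ± 0.071 (adjusted p = 0.0168), which did not pass without experiment 4 (adjusted p = 0.0641).

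Among the mitochondrial synthetases 3 fell in WT. Mars2 (methionine) had log2 signals in WT of 8.91, 9.09, 8.79, 8.999 and 8.96 at 0 min and of 8.60, 8.59, 8.62, 8.69 and 8.68 at 120 min. In KO they were 8.95, 8.94, 8.83 and 8.91 at 0 min and 8.61, 8.68, 8.58, 8.70 and 8.76 at 120 min. The arrays of 120 min lay below all those of 0 min in both lines, and Mars2 fell by 0.32 ± 0.051 in WT (adjusted p = 3.1e-06) and by 0.24 ± 0.054 in KO (adjusted p = 0.000687). Its second probe set did not pass in either line, at 0.03 (adjusted p = 0.603) and -0.02 (adjusted p = 0.777).

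Rars2 (arginine) had signals in WT of 8.99, 9.02, 8.80, 8.99 and 9.06 at 0 min and of 8.65, 8.66, 8.69, 8.70 and 8.84 at 120 min. In KO it had 9.02, 8.96, 9.07 and 8.998 at 0 min and 8.76, 8.89, 8.82, 8.75 and 8.92 at 120 min. Apart from 1 WT array at each end the times stood apart, and Rars2 fell by 0.26 ± 0.045 in WT (adjusted p = 9.68e-06) and by 0.18 ± 0.047 in KO (adjusted p = 0.0033). Wars2 had signals at 120 min of 8.53, 8.45, 8.38, 8.496 and 8.57 in WT, while the 5 KO arrays lay between 8.39 and 8.41. Its change was -0.18 ± 0.046 in WT (adjusted p = 0.0029) and -0.02 ± 0.049 in KO (adjusted p = 0.862), and the slope difference did not pass. The second probe set of Wars2 changed by -0.08 in WT and did not pass. Cars2 rose in both lines, by 0.16 in WT (adjusted p = 0.000226) and 0.14 in KO (adjusted p = 0.00308). Its 3 probe sets changed by -0.10 to 0.16 in KO, and the rise in KO did not pass by their average (0.07, adjusted p = 0.14). In experiments 4 and 5 alone, with a single KO array at 0 min, the rise in KO was 0.12.

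Of the cytosolic synthetases, 4 rose in WT (Kars, Nars, Rars and Wars, by 0.14 to 0.24 on the log2 scale) and 3 in KO (Nars, Vars and Wars, by 0.16 to 0.19), and 0 fell in either line with limma (0 also at an unadjusted p under 0.05). With the experiment as a block these counts were 9 in WT and 8 in KO. Leaving out experiment 4 or 5 took Rars and Wars out of the WT count. Leaving out any 1 of the experiments took Nars out of the KO count, at an adjusted p of 0.0557 to 0.136, and leaving out experiment 1, 2, 3 or 4 took out Vars (0.0599 to 0.105). Tars2 rose in KO by 0.11 (adjusted p = 0.0478) and did not pass without any 1 of the experiments (0.0503 to 0.215).

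**Figure D4:**
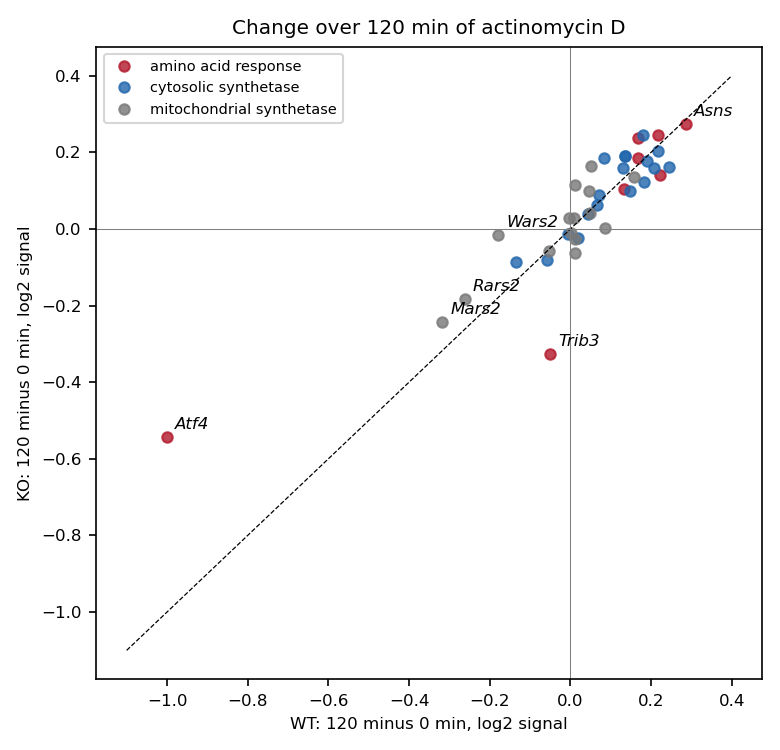
Change in log2 signal from 0 to 120 min of actinomycin D in WT (horizontal axis) and in KO (vertical axis), one point per gene for the 41 genes, coloured by kind and the dashed line marks equal change. Atf4 lies at -1.001 and -0.54, away from the rest, Trib3 at -0.05 and -0.33, and Mars2 and Rars2 are below 0 on both axes.

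The rest of the pathway was described through 49 further genes, of which 46 were on the array under a single symbol and 43 were tested. In the average over the 5 times 27 were higher in KO, 6 lower and 10 did not pass, with a median log2 difference of 0.17, beside the 27.3% and 25.6% of all probe sets given above. Amino acid transporters counted 7 higher and 1 lower of 8. Stress response genes counted 10 higher and 1 lower of 12, other amino acid and one-carbon enzymes 6 and 2 of 11, the eIF2 alpha kinases and phosphatase genes 3 and 1 of 7, and other synthetase genes and scaffolds 1 and 1 of 5.

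The highest was Vldlr, a lipoprotein receptor gene that ATF4 is reported to raise, with log2 signals at 0 min of 8.64, 8.66, 8.77, 8.68 and 8.70 in WT and of 10.80, 10.46, 10.37 and 9.83 in KO. Its averaged difference was 1.49 ± 0.065 (adjusted p = 6.09e-24), or 2.81-fold. The probe set of Vldlr also ends in x_at, and no second reading of this gene is given. Cth, which makes cysteine from cystathionine, followed at 0.71 ± 0.032 (adjusted p = 2.68e-23), with signals of 8.37 to 8.52 in WT and 8.99 to 9.24 in KO at 0 min. Slc3a2, the heavy chain of the large neutral amino acid transporter, stood at 0.68 ± 0.025 (adjusted p = 8.37e-27), and Bcat1, a branched-chain aminotransferase, at 0.62 ± 0.055 (adjusted p = 2e-13). In each of Vldlr, Cth and Slc3a2 every KO array at 0 min lay above every WT array, but the share of all probe sets that did so at 0 min was not counted.

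The lowest was Slc1a5, a glutamine transporter, with signals at 0 min of 9.19, 9.08, 9.02, 9.29 and 9.27 in WT and of 8.63, 8.54, 8.54 and 8.75 in KO, and an averaged difference of -0.67 ± 0.039 (adjusted p = 1.61e-19). Nupr1, a stress-induced chromatin factor, stood at -0.47 ± 0.060 (adjusted p = 5.16e-09), Eif2ak1, the heme-regulated kinase of eIF2 alpha, at -0.19 ± 0.025 (adjusted p = 9.08e-09), and Tarsl2, a further threonine enzyme, at -0.13 ± 0.021 (adjusted p = 1.18e-06). The direction was therefore not common to the whole pathway. Eprs, the glutamate and proline enzyme, did not pass (-0.08 ± 0.075, adjusted p = 0.411). Of the scaffold genes of the multi-synthetase complex, Eef1e1 was higher in KO (0.17 ± 0.033, adjusted p = 1.39e-05), and Aimp1 (0.03, adjusted p = 0.56) and Aimp2 (0.04, adjusted p = 0.127) did not pass.

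Chac1, a glutathione-degrading enzyme gene induced by ATF4, had group means of 9.24 in WT and 10.12 in KO at 0 min and of 8.03 and 8.11 at 120 min, which is at the floor of the arrays. It fell by 1.21 ± 0.093 in WT (adjusted p = 1.3e-14) and by 2.01 ± 0.099 in KO (adjusted p = 7.89e-21) on the log2 scale, and both ended at the floor, where a fall is compressed. Its slope difference was -0.44 ± 0.090 log2 per h (adjusted p = 0.0035). With both lines at the floor by 120 min, a difference in rate cannot be told apart from the different starting levels. The only other slope difference to pass among the 43 was that of Eif2ak3, the endoplasmic reticulum kinase of eIF2 alpha, at -0.09 ± 0.023 (adjusted p = 0.0361), named after its value was seen. Its group means were 8.79 in WT and 9.16 in KO at 0 min and 8.63 and 8.83 at 120 min. With WT close to the dim end, a difference in rate cannot be told apart from the different starting levels here either. Ddit3, a stress factor downstream of ATF4, was higher in KO by 0.09 ± 0.024 (adjusted p = 0.00099) and fell over 120 min by 0.28 in WT and 0.23 in KO.

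**Figure D5:**
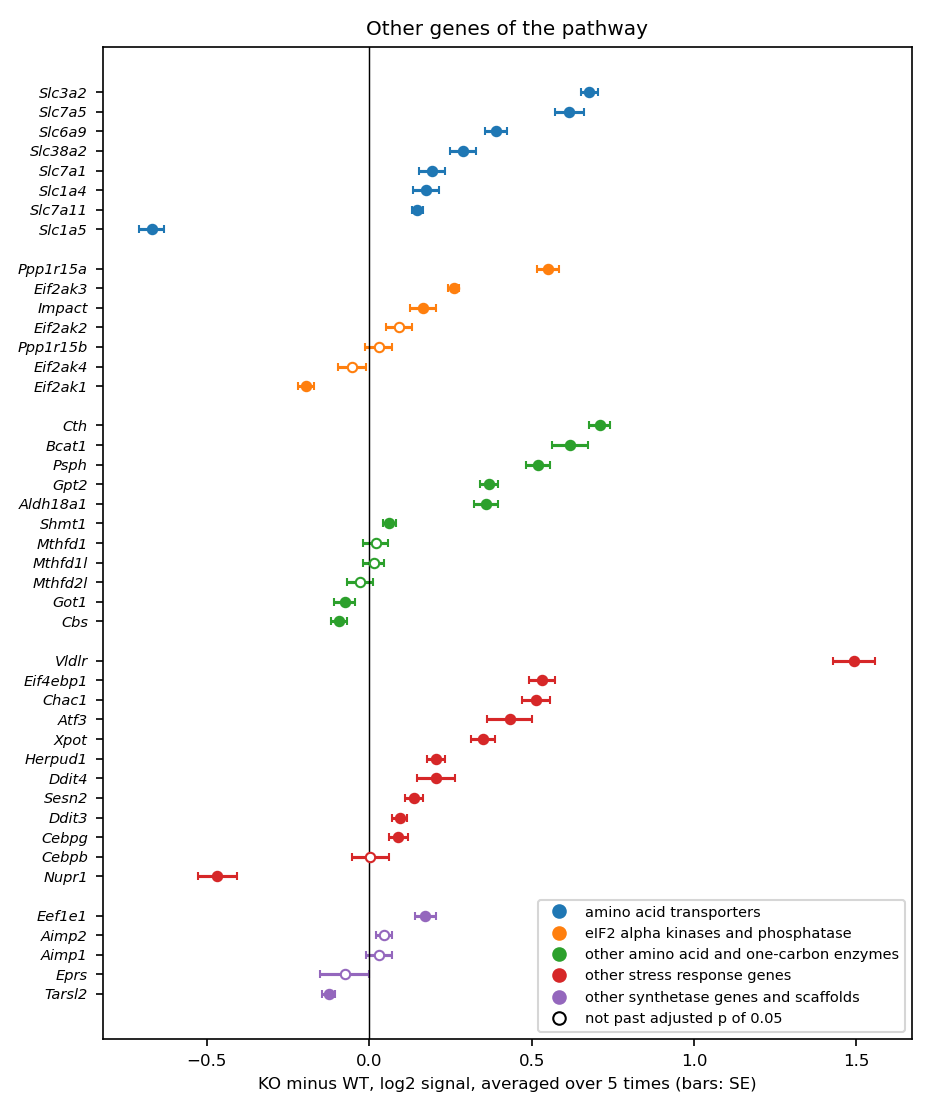
KO minus WT difference in log2 signal (horizontal axis, averaged over the 5 times, bars SE from the limma fit) for the 43 further pathway genes, one row each, grouped and coloured by list; open points did not pass an adjusted p of 0.05. Vldlr lies at 1.49, Slc1a5 at -0.67, and 27 of the 43 pass above 0.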

How the data were processed

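Each array gave 1 value per probe set. The deposited values are log2 signals (base inferred from their range); the authors' summarisation, background correction and normalisation are not stated in the labels, and the deposited scaling was kept. Of 45101 probe sets, 64 controls were dropped. Tested were 27500 that exceeded the array median in at least 4 arrays, and the brightest probe set stood for a gene. limma 3.58.1 (R 4.3.3, data.table version 1.17.8; trend and robust options of eBayes) was fitted to all 48 arrays with 1 mean per group, or a straight line per line for slopes. Tests were two-sided, with Benjamini-Hochberg adjustment over all probe sets and a threshold of 0.05; the code was tested on simulated data. Errors are SE of differences and SD of group means, and the number of arrays limits the precision. Replicates are experiments on what appears to be 1 line per genotype, so p-values measure only the spread between these samples. The main fit counts the times of 1 experiment as independent arrays. Adjusted p-values of differences that vary between experiments may therefore be too small.

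Alternatives were a block for the experiment, no filter, a stricter filter (75th percentile), quantile normalisation, subtraction of the 5th percentile with an offset of 50, no trend or robust prior, the average of all probe sets of a gene, experiments 1 to 3 or 4 and 5 only, each experiment left out, and slopes without 0 min. The pairing by experiment comes from the series text, in which both lines were run side by side on each day. Residuals of same-day KO and WT arrays correlated at a median r of 0.17 (23 pairs, -0.25 to 0.60, 16 over 0.1), and those of other pairs at -0.07. The first component of the residuals (33.9% of their variance) separated experiments 4 and 5 (scores of -3.98 or lower) from 1 to 3 (lowest score -2.38), which were used as batches.

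The genes and lists were chosen with earlier results of these data known. Every array was drawn, and single arrays at 0 min or at 0 and 120 min were written out, for the 8 response genes, the 5 synthetases with the highest and the 5 with the lowest averaged difference past the threshold, and the 3 with the lowest WT change. The 4 highest and 4 lowest pathway genes were named, with Eprs, Ddit3, Chac1 and the scaffold genes Aimp1, Aimp2 and Eef1e1.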

Additional observations from a re-analysis of the deposited data

Results flagged for a closer look

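Within the 410 groups of 4 or 5 arrays (41 genes by 10 groups), 20 held an array that lay farther from its neighbours than Dixon's critical value allows; chance flags about 1 in 20 groups. The 20 values came from 16 arrays, with 3 values from the WT array of experiment 3 at 0 min and 2 each from the KO arrays of experiment 2 at 0 min and of experiment 4 at 90 min. Experiments 1 to 5 held 3, 3, 5, 4 and 5 of the values.

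Among the response genes, Atf5 in KO at 90 min was high in experiment 4 (log2 signal 10.12). Phgdh in WT at 60 min stood apart in experiment 3 (11.12), and Psat1 in KO at 0 min was low in experiment 2 (10.65).

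Among the cytosolic synthetases, Farsa stood apart in WT at 90 min in experiment 3 (9.17), in WT at 120 min in experiment 4 (9.54) and in KO at 120 min in experiment 5 (9.55). Yars stood apart in KO at 60 min in experiment 5 (9.21) and in experiment 4 at 90 min (9.46) and 120 min (9.50). Sars in KO at 90 min was low in experiment 5 (10.26), and Cars in WT at 60 min was high in experiment 1 (9.20).

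Among the mitochondrial synthetases, Fars2 stood apart in WT at 120 min in experiment 1 (9.02) and in KO at 120 min in experiment 2 (9.20), and Rars2 in WT at 0 min in experiment 3 (8.80) and at 120 min in experiment 5 (8.84). In WT at 0 min in experiment 3, Nars2 (8.57) and Sars2 (9.53) stood apart too. The others were Hars2 in WT at 90 min in experiment 1 (8.38), Iars2 in KO at 0 min in experiment 2 (9.41) and Mars2 in KO at 30 min in experiment 5 (9.02).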

How the results depend on the processing

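Of 426 counts recomputed under the alternatives, 373 kept within 1.5 times of the reported count. The counts of higher response genes and higher cytosolic synthetases were 8 and 13 in the average, and stayed between 6 and 8 and between 12 and 14 under all alternatives run. The cause of the changes below was not tested. For the experiment as a block (the pairing), the count of cytosolic synthetases below 0 at 0 min went from 0 to 1, of mitochondrial ones above 0 at 0 min from 0 to 1, of response genes rising over 120 min from 1 to 4 in WT and from 0 to 4 in KO, of cytosolic ones rising from 4 to 9 in WT and from 3 to 8 in KO, and of response genes with a slope difference above 0 from 0 to 1 (Atf4). The block changed no other count by over 1.5 times.

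At 0 min, quantile normalisation gave 1 cytosolic synthetase below and 1 mitochondrial above 0, the average of all probe sets gave 1 cytosolic and 2 mitochondrial below, and the stricter filter 0 mitochondrial below. In the average over the times, experiments 1 to 3 gave 1 cytosolic synthetase below 0 and experiments 4 and 5 gave 1 mitochondrial below and 2 above, as did the average of all probe sets for those above (2). For the rise over 120 min in WT, quantile normalisation gave 7 cytosolic synthetases, experiments 1 to 3 gave 1 cytosolic, 2 mitochondrial and 0 response genes, and experiments 4 and 5 gave 8 cytosolic and 2 response genes. For the rise in KO, cytosolic synthetases counted 1 with no filter, with the floor subtracted and in experiments 4 and 5, and 5 by the average of all probe sets; mitochondrial ones counted 1 with no filter, with the floor subtracted and in experiments 1 to 3, and 0 by the average of all probe sets and in experiments 4 and 5; response genes counted 1 with the stricter filter and in experiments 1 to 3. In experiments 4 and 5, 0 mitochondrial synthetases fell in KO and 1 response gene (Trib3) had a slope difference below 0.

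Leaving out 1 experiment gave 5 to 6 response genes and 12 to 13 cytosolic synthetases higher at 0 min; in the average 7 to 8 response genes higher, 13 to 14 cytosolic higher and 1 to 2 lower, and 1 to 5 mitochondrial lower. Rises over 120 min were 2 to 4 cytosolic, 1 to 2 mitochondrial and 0 to 2 response genes in WT, and 1 to 3 cytosolic and 1 mitochondrial in KO.

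Signs turned for small differences at 0 min. Atf4 was at -0.069 in experiments 1 to 3 and between -0.0229 and 0.0824 when 1 experiment was left out. Those ranges were -0.0477 to 0.126 for Hars, -0.0705 to 0.0106 for Wars and -0.124 to 0.0455 for Qars. Wars was at 0.142 in experiments 4 and 5, with a single KO array at 0 min, and Qars at 0.0154 with the block and 0.119 in experiments 1 to 3. Lars2 in the average over the times was at 0.0535 by the average of its probe sets (adjusted p = 0.00089). Signals near the floor limit what can be read from the mitochondrial synthetases and Trib3; with the floor subtracted, 1 mitochondrial synthetase was higher and 3 lower.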
